A study of Oryza sativa with 10 samples.

Results

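Heat stress factors (HSFs) are the transcription factors that bind heat shock elements in plant promoters. The 7 genes described here are rice factors of classes B and C: HSFB1 (Os09g0456800), the HSFB2 group of HSFB2A (Os04g0568700), HSFB2B (Os08g0546800) and HSFB2C (Os09g0526600), and the HSFC group of HSFC2A (Os02g0232000), HSFC1B (Os01g0733200) and HSFC2B (Os06g0553100). They were taken by gene identifier from the 37727 loci of each deposited count table, and all 7 were present in both. The tables annotate 25 heat stress factors in all, with 13 of class A and 5 further ones of classes B and C. The 7 were selected on annotated class and gene name with the measured levels and fertilizer differences of these same libraries already known, and which of those values weighed in the choice is not recorded. Their levels and differences are therefore a description and not a test, given without p-values, and their calls are counts only.

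Class A factors carry activator motifs and switch on chaperone genes when proteins unfold. Class B factors lack those motifs and carry a repressor motif, and in Arabidopsis HSFB1 and HSFB2B hold down heat-inducible factor genes outside heat and help the response to end. Class C factors also lack the activator motifs and are less well known. The deposited annotation describes HSFB2B as a negative regulator of drought and salt tolerance, and HSFC1B as a factor of abscisic acid mediated salt tolerance.

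The libraries are from the rice (Oryza sativa) cultivar Nijinokirameki, wild type, sampled at day 5 after flowering in 2024, about 15 weeks after sowing. Chemical fertilizer (CF) plants received a basal dressing of 56 kg/ha N, 176 kg/ha PO4 and 56 kg/ha K, and green manure (GM) plants grew on plowed-in hairy vetch with no chemical fertilizer. Endosperm, freed of husk and embryo, came in 2 CF and 2 GM replicates, each pooled from more than 10 spikelets on 3 panicles of the same plant, and flag leaf in 3 CF and 3 GM replicates. The labels describe no repeated plots and do not say how leaf replicates relate to plants, so p-values measure only the spread between these samples.

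Libraries held 12200510 to 25827356 counted reads, and each GM leaf library was shallower than each CF leaf library. Endosperm markers fitted the labels, with a summed level of 52263 to 87378 CPM (reads relative to the library total) in endosperm and 768 to 870 in leaf over 68 genes. Oleosins and 1-Cys peroxiredoxin, 7 genes of embryo and aleurone, summed to at most 0.707 CPM in leaf. In endosperm they summed to between 921 and 967 CPM under CF and between 444 and 519 CPM under GM, so the GM libraries were below the CF libraries. Light-harvesting genes, 27 in the list, summed to between 4856 and 6760 CPM in CF endosperm and between 4303 and 4304 CPM in GM endosperm. In leaf these genes summed to between 49695 and 55818 CPM under CF and between 47553 and 57849 CPM under GM. All levels are CPM after TMM (trimmed mean of M-values) scaling across the 10 libraries. No transcript length was used, so levels of different genes are not compared, and CPM serves only as a read-based rank where genes are picked for naming.

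Under GM, the HSFB2 genes were lower in the endosperm and higher in the flag leaf. All 7 class B and C genes had negative log2 differences in the endosperm, that of HSFC1B depending on single libraries, and all 5 that could be fitted in the leaf had positive ones. HSFB2A and HSFB2B therefore changed their tissue order: both were higher in endosperm than in leaf under CF, and higher in leaf than in endosperm under GM. HSFC1B, not fitted in leaf, had 20 reads over the CF and 5 over the GM leaf libraries. Outside the 7, the class C gene HSFC1A had a log2 difference of −0.81 in leaf. In endosperm the class B genes OsHsfB4d and HSFB4B, also outside the 7, had 0.33 and −0.12.

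**Figure D1:**
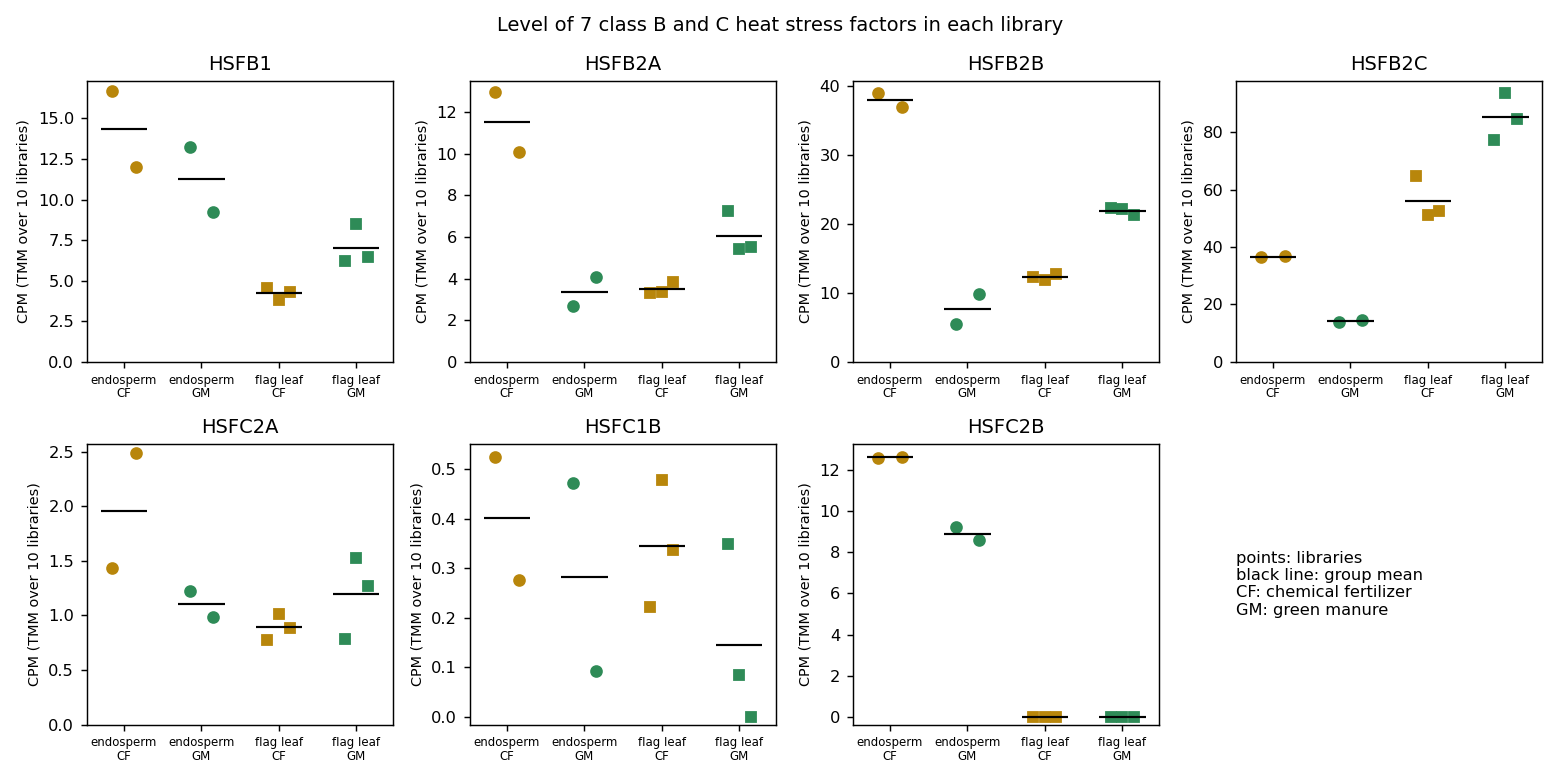
Level of each of the 7 genes in every library, in CPM (vertical axis, linear, its own scale in each panel); points are libraries and black lines group means. HSFB2A and HSFB2B stand highest in CF endosperm and next in GM leaf, HSFB2C stands highest in GM leaf, and HSFC2B has no read in any of the 6 leaf libraries.

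HSFB2B had 39.1 and 37.0 CPM in the CF endosperm libraries and 5.51 and 9.86 CPM in the GM ones. Every CF library was above every GM library, although GM replicate 1 and GM replicate 2 lay well apart. The log2 difference, GM minus CF, was −2.34 (SE 0.27), a level 5.08-fold lower under GM. Without GM replicate 2 that difference was −2.82, and without GM replicate 1 it was −1.97.

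HSFB2A, whose deposited description names the factor Spl7 although its symbol is that of a B2 gene, had 13.0 and 10.1 CPM in CF endosperm. In GM endosperm it had 2.68 and 4.07 CPM. The groups did not overlap, and the log2 difference was −1.81 (SE 0.22).

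HSFB2C varied least of the 3 between endosperm replicates. It had 36.6 and 36.8 CPM in CF endosperm and 13.7 and 14.7 CPM in GM endosperm, a log2 difference of −1.39 (SE 0.11).

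HSFB1 did not part the groups in endosperm. Its libraries gave 16.7 and 12.02 CPM under CF and 13.3 and 9.25 CPM under GM, so that CF replicate 2 lay below GM replicate 1. The log2 difference was −0.38 (SE 0.20). In both groups replicate 1 was the higher library for HSFB1. With 1 library left out at a time the value lay between −0.66 and −0.14, and the gene was called without GM replicate 1, at −0.66.

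The class C genes differed less than the HSFB2 genes in endosperm, with values between −0.82 and −0.51. HSFC2B had 12.6 CPM in each CF endosperm library against 9.21 and 8.60 CPM under GM, with no overlap and a log2 difference of −0.53 (SE 0.14). HSFC2A rested on 21 to 36 reads a library in endosperm. It gave 1.43 and 2.49 CPM under CF and 1.22 and 0.981 CPM under GM, at −0.82 (SE 0.38) on the log2 scale. That value was −1.22 without CF replicate 1 and −0.37 without CF replicate 2. HSFC1B had 11 and 4 reads in CF endosperm and 12 and 2 in GM endosperm, with overlapping groups. Its log2 value of −0.51 (SE 0.73) became 0.02 without CF replicate 1 and 0.15 without GM replicate 2.

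The test was edgeR's quasi-likelihood test over all genes of the tissue, and a gene counts as called at a Benjamini-Hochberg adjusted p under 0.05. In endosperm 3 of the 7 genes were called lower and none higher, against 1.23% of the 23094 genes tested called lower and 0.0303% called higher. Nothing is read from that count, since the genes were chosen with these values known. The 3 were HSFB2A, HSFB2B and HSFB2C, and HSFB2B was not called without CF replicate 1 or without CF replicate 2. Libraries did not overlap, GM below CF, for 5 of the 7, against 23.5% of all genes tested, and GM lay above CF for none, against 22.8%. Of the embryo and aleurone markers 4 of 7 were called lower, with all 7 below 0 and a median log2 difference of −0.79. Of the light-harvesting genes 0 of 21 tested were called, with 17 below 0 and a median of −0.34. Their libraries did not overlap for 13 genes with GM below CF and for 2 genes with GM above CF. The part of either marker list in these differences was not tested. In bulk tissue, fewer cells of a type and less RNA per cell cannot be told apart.

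In the flag leaf the 3 HSFB2 genes differed in the opposite direction and by less than in endosperm. HSFB2B had 12.3, 11.9 and 12.8 CPM under CF and 22.3, 22.2 and 21.3 CPM under GM. The groups were tight and well apart, and the log2 difference was 0.83 (SE 0.09), a 1.78-fold higher level under GM.

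HSFB2C had 64.6, 51.3 and 52.5 CPM in CF leaf and 77.4, 93.8 and 84.5 CPM in GM leaf, a log2 difference of 0.61 (SE 0.10). Every GM library was above every CF library, with CF replicate 1 nearest to the GM libraries.

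HSFB2A gave 3.33, 3.34 and 3.83 CPM under CF and 7.25, 5.42 and 5.52 CPM under GM, from 56 to 91 reads a library. The groups did not overlap, and the log2 difference was 0.79 (SE 0.18). HSFB1 gave 4.56, 3.82 and 4.30 CPM under CF and 6.20, 8.47 and 6.44 CPM under GM, also without overlap, at 0.74 (SE 0.17) on the log2 scale. HSFB1 thus parted the leaf groups but not the endosperm groups.

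HSFC2A had 9 to 21 reads in a leaf library, and its groups overlapped at 0.778, 1.01 and 0.884 CPM under CF and 0.787, 1.52 and 1.27 CPM under GM (log2 0.44, SE 0.33). HSFC1B had 4, 8 and 8 reads in CF leaf and 4, 1 and 0 in GM leaf, and was left out of the leaf fit by the filter on low counts. HSFC2B had 0 reads in all 6 leaf libraries, which allows a level of up to 0.0313 CPM over the tissue (3 counts, counting error only).

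In the leaf, 4 of the 5 genes tested were called higher and none lower, against 2.47% of the 20208 genes tested called higher and 0.47% called lower. Nothing is read from that count, since the genes were chosen with these values known. The 4 were HSFB1, HSFB2A, HSFB2B and HSFB2C, and their libraries did not overlap, GM above CF, as was so for 12.5% of all genes tested. GM lay wholly below CF for none of the 5, against 9.76% of all genes. The count depended on single libraries. HSFB2B alone was called when CF replicate 2 was left out, and again when CF replicate 3 was, and no omitted leaf library ended its call. With 1 leaf library left out at a time, between 1 and 3 were called. Since GM leaf libraries were shallower, counts were also thinned to equal depth, a setting chosen after seeing the data: 3 of the genes were called, and HSFB2B kept a log2 difference of 0.81.

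**Figure D2:**
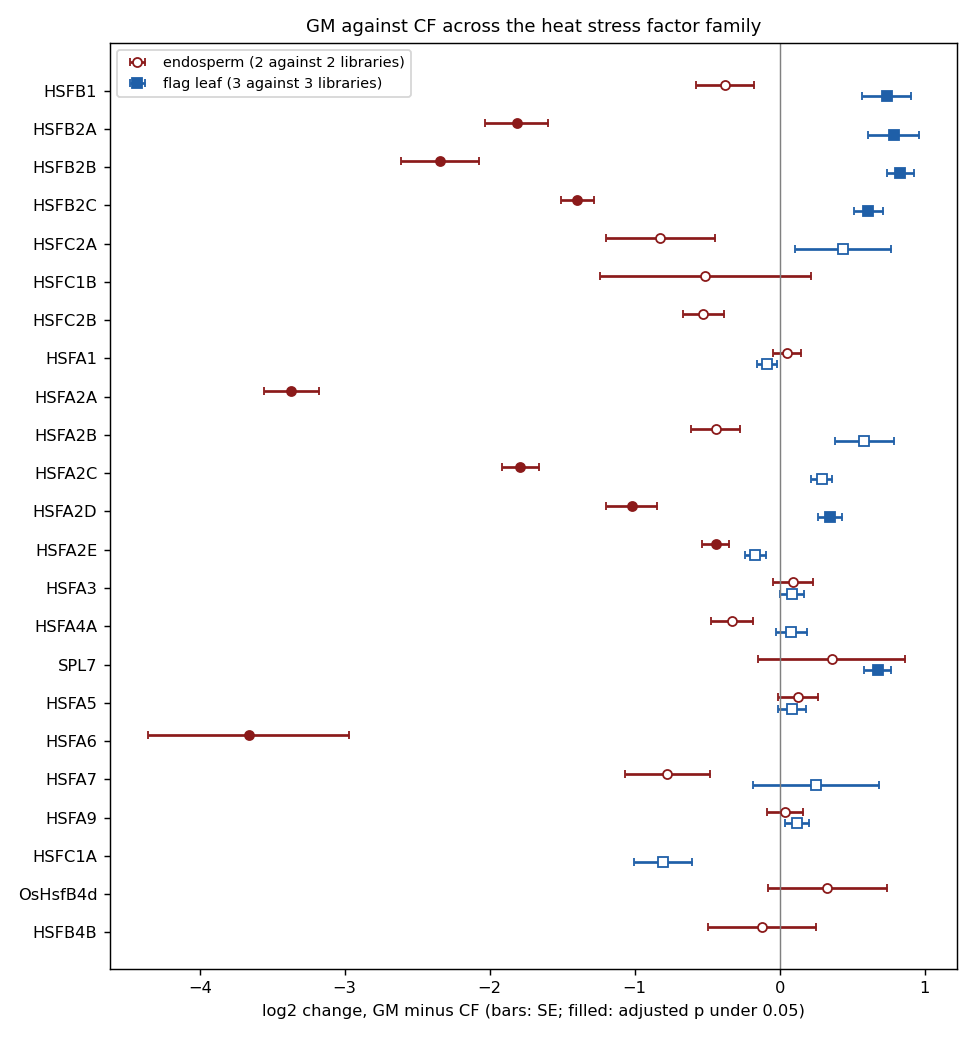
Log2 difference, GM minus CF, with its SE for each heat stress factor that could be fitted, in endosperm (circles) and flag leaf (squares); filled symbols passed an adjusted p of 0.05. The 4 class B genes at the top lie below 0 in endosperm and above 0 in leaf, between −2.34 and −0.38 in endosperm and between 0.61 and 0.83 in leaf.

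The difference between the tissues was fitted directly over all 10 libraries, subtracting the GM effect in leaf from that in endosperm. It was −3.15 (SE 0.23) for HSFB2B, −2.57 (SE 0.30) for HSFB2A, −1.97 (SE 0.16) for HSFB2C and −1.08 (SE 0.28) for HSFB1 on the log2 scale. HSFC2A had −1.22 (SE 0.50) and HSFC1B 0.81 (SE 1.19). No value is given for HSFC2B, which had no leaf reads. The 3 HSFB2 genes were called, all negative, against 0.555% of the 25035 genes tested called negative and 0.0599% called positive. Nothing is read from that count, since the genes were chosen with these values known.

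Tissue levels were ordered gene by gene. They rest on 1 TMM scaling shared by both tissues, although under CF 45.0% of genes tested were called higher in endosperm and 38.1% lower. Small tissue differences depend most on that scaling. Under CF, HSFB1 was 3.41-fold higher in endosperm than in leaf (log2 1.77, SE 0.20), HSFB2A 3.29-fold (log2 1.72, SE 0.20) and HSFB2B 3.08-fold (log2 1.62, SE 0.16). HSFC2A was 2.14-fold higher in endosperm (log2 1.099, SE 0.34), or by a log2 value of 0.69 without CF endosperm replicate 2, where the call was lost. HSFB2C went the other way, at −0.61 (SE 0.11), lower in endosperm than in leaf. HSFC1B had a log2 value of 0.28 (SE 0.72), with overlapping libraries.

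Under GM, HSFB1 was still higher in endosperm, by 1.61-fold (log2 0.69, SE 0.20), and by a log2 value of 0.40, with the call lost, without GM endosperm replicate 1. HSFB2A was 1.80-fold lower in endosperm than in leaf (log2 −0.85, SE 0.22), HSFB2B 2.88-fold lower (log2 −1.52, SE 0.17) and HSFB2C 6.004-fold lower (log2 −2.59, SE 0.12). HSFC2A at −0.12 (SE 0.36) and HSFC1B at 1.09 (SE 0.95) had libraries that overlapped between the tissues.

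**Figure D3:**
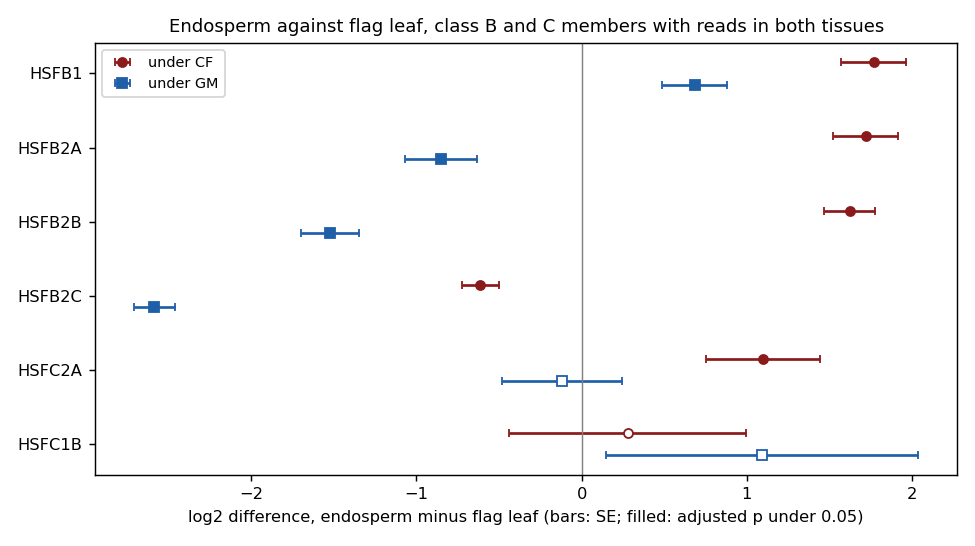
Log2 difference, endosperm minus flag leaf, with its SE under CF (circles) and under GM (squares) for the 6 genes with reads in both tissues; filled symbols passed an adjusted p of 0.05. HSFB2A and HSFB2B lie right of 0 under CF, at 1.72 and 1.62, and left of it under GM, at −0.85 and −1.52.

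Called counts between the tissues were 5 higher and 1 lower of the 7 under CF, where 45.0% of the 25035 genes tested were higher in endosperm and 38.1% lower. They were 2 higher and 3 lower under GM, where the shares over all genes were 44.6% and 37.7%. Nothing is read from these counts, since the 7 genes were chosen with these values known. The order of each gene is the fuller description. The order of the group means was, for HSFB2B, CF endosperm, GM leaf, CF leaf and GM endosperm (38.0 ± 1.51, 21.9 ± 0.55, 12.3 ± 0.439 and 7.68 ± 3.08 CPM; SD, n = 2, 3, 3 and 2), and no neighbours in it overlapped. For HSFB2A it was CF endosperm, GM leaf, CF leaf and GM endosperm (11.5 ± 2.05, 6.06 ± 1.03, 3.50 ± 0.286 and 3.37 ± 0.983 CPM), and the last 2 overlapped. For HSFB2C it was GM leaf, CF leaf, CF endosperm and GM endosperm (85.2 ± 8.21, 56.1 ± 7.38, 36.7 ± 0.0976 and 14.2 ± 0.665 CPM), with no overlap between neighbours. For HSFB1 it was CF endosperm, GM endosperm, GM leaf and CF leaf (14.3 ± 3.28, 11.3 ± 2.83, 7.04 ± 1.24 and 4.22 ± 0.375 CPM), and the 2 endosperm groups overlapped.

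HSFC2B was read in endosperm alone. It had 447 reads over the CF and 418 over the GM endosperm libraries and 0 in leaf, so its level was at least 246-fold higher in endosperm than in leaf under CF and at least 111-fold higher under GM, against 3 counts over the leaf group. Its relative HSFC1A (Os01g0625300), not among the 7, had the mirror pattern, with 0 reads in the 4 endosperm libraries. In leaf it had 79, 67 and 111 reads under CF and 33, 23 and 37 under GM, at least 51.9-fold higher in leaf than in endosperm under CF and at least 38.8-fold higher under GM. The GM minus CF value of HSFC1A in leaf was −0.81 (SE 0.20, adjusted p = 0.051) on the log2 scale, with GM libraries below CF libraries, opposite in sign to the 5 fitted genes.

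HSFB2B and HSFB2C were also compared with each other within a library, a ratio in which library size cancels. CF endosperm gave 1.07 and 1.01 reads of HSFB2B per read of HSFB2C, and GM endosperm gave 0.401 and 0.672. The CF leaf libraries gave 0.190, 0.233 and 0.244, and the GM leaf libraries 0.288, 0.236 and 0.252. Endosperm groups did not overlap in this ratio, leaf groups did, and every endosperm library was above every leaf library. For HSFB2A per read of HSFB2C the endosperm groups overlapped, at 0.355 and 0.274 under CF and 0.195 and 0.277 under GM. With 2 libraries against 2, an exact permutation test cannot go below p = 0.333, so none is given.

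**Figure D4:**
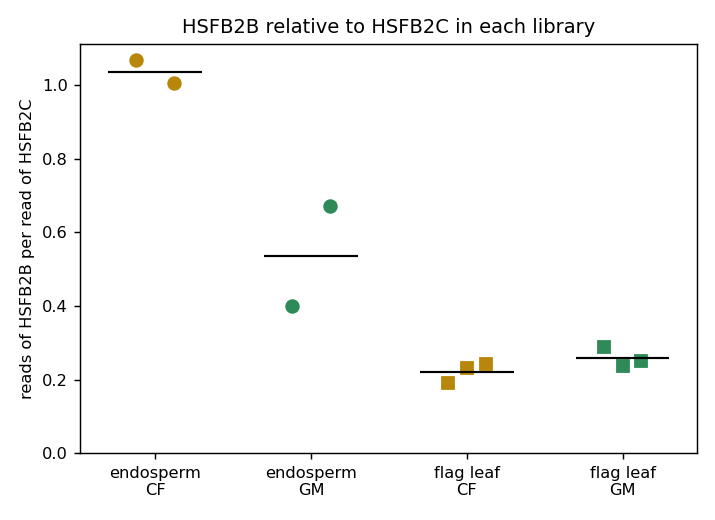
Reads of HSFB2B per read of HSFB2C in each library (vertical axis, linear from 0), with group means as black lines. CF endosperm lies at 1.07 and 1.01, GM endosperm at 0.401 and 0.672, and all 6 leaf libraries between 0.190 and 0.288.

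Likeness of pattern was measured as the root mean square difference of log2 levels over the 10 libraries, each profile centred on its own mean, among genes with a mean of at least 1 CPM. The nearest gene to HSFB2B was OsPUB63 (Os06g0159900), a U-box protein gene, at 0.21, and the next was HSFB2A at 0.30. Nearest to HSFB2A were the cytosolic chaperone gene OsctHSP70-1 (Os05g0460000) at 0.28 and the unnamed gene Os08g0444440 at 0.29. HSFB2B and the class A gene HSFA2C (Os10g0419300) were also among its 20 nearest, at 0.30 and 0.42. Nearest to HSFB2C were SNAC1 (Os03g0815100), a stress-responsive NAC factor, at 0.20 and the protein phosphatase 2C gene PP2C1 (Os09g0325700) at 0.23, and no other heat stress factor was among the 20. Nearest to HSFB1 were Os11g0630501, described as similar to a BTB/POZ domain protein, at 0.16 and the lignin enzyme gene CYP84A5 (Os10g0512400) at 0.18. For HSFC2A they were Os05g0141700 at 0.27 and Os11g0163800 at 0.27, for HSFC2B OsGLP5-2 (Os05g0277500) at 0.06 and ONI2 (Os10g0416200) at 0.06, and for HSFC1B OsABCB12_2 (Os03g0181750) at 0.72 and Os02g0212975 at 0.81. For HSFC2B the leaf side of this measure is set by a prior of 0.5 counts on zero reads. HSFC1B had 0 to 12 reads a library and was itself below 1 CPM in each. Its profile, and so its nearest genes, rest on few reads and on the same prior.

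Class A factors, the activators of the family, were split in the endosperm. Of 13 tested, 5 fell, none rose and 8 did not pass the test, against 1.26% of all genes called, and the median log2 difference was −0.44 beside 0.00 over all genes tested. HSFA2A (Os03g0745000), a heat-induced factor, had 39.7 and 30.6 CPM under CF and 2.83 and 4.16 CPM under GM (log2 −3.37, SE 0.19, adjusted p = 3.9e-05). HSFA2C went from 143 and 141 CPM to 36.3 and 47.5 CPM (log2 −1.79, SE 0.13, adjusted p = 5.0e-05). These 2 held the call in all 10 alternative fits.

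The other 3 calls were less stable. HSFA2D (Os03g0161900) fell by 1.02 on the log2 scale (SE 0.17, adjusted p = 0.024), a call lost without CF replicate 1 (adjusted p = 0.110). HSFA2E (Os03g0795900) fell by 0.44 (SE 0.09, adjusted p = 0.046), a call lost without any 1 of the 4 libraries. HSFA6 (Os06g0565200) rested on 19 and 12 reads against 1 and 2 (log2 −3.66, SE 0.69, adjusted p = 0.025), and leaving out either CF library ended its call (adjusted p = 0.292 without CF replicate 1, adjusted p = 0.120 without CF replicate 2). HSFA1 (Os03g0854500), of the subclass known as master activators in other plants, had a value of 0.05 (SE 0.10, adjusted p = 0.856). HSFA7 (Os01g0571300) had −0.78 (SE 0.29), HSFA2B (Os07g0178600) −0.44 (SE 0.17) and HSFA4A (Os01g0749300) −0.33 (SE 0.15), with GM libraries below CF libraries. HSFA5 (Os02g0496100) had 0.13 (SE 0.14), HSFA3 (Os02g0527300) 0.09 (SE 0.14), HSFA9 (Os03g0224700) 0.04 (SE 0.12) and SPL7, described below, 0.36 (SE 0.51). None of these was called.

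In leaf, 2 of 11 class A factors tested rose and none fell, against 2.94% of all genes called, with a median of 0.12 beside 0.00. SPL7 (Os05g0530400), the A4 factor whose loss gives spotted leaves, rose from 30.8, 28.0 and 28.3 CPM to 40.1, 51.0 and 47.2 CPM (log2 0.68, SE 0.09, adjusted p = 0.0069), a call lost without CF replicate 2 (adjusted p = 0.065). HSFA2D rose by 0.35 (SE 0.08, adjusted p = 0.046), a call lost whichever leaf library was left out (adjusted p up to 0.217). HSFA2C had a leaf value of 0.29 (SE 0.07, adjusted p = 0.059). The difference between tissues was called for HSFA2A at −3.87 (SE 0.61), HSFA2C at −2.05 (SE 0.14) and HSFA2D at −1.34 (SE 0.20). These were 3 of 13 class A factors tested, beside 0.555% of all genes called negative and 0.0599% called positive.

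Of the other 5 class B and C genes, HSFC1A, described above, was the one tested in leaf. HSFB4A (Os08g0471000) had 0 reads in all 10 libraries and HSFB4C (Os09g0455200) at most 11. In endosperm OsHsfB4d (Os03g0366800) had a log2 value of 0.33 (SE 0.41, adjusted p = 0.758) and HSFB4B (Os07g0640900) of −0.12 (SE 0.37, adjusted p = 0.915). No member of this list passed the test in either tissue by edgeR, and 1 had an unadjusted p under 0.05, in leaf.

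Chaperone genes, the usual targets of heat stress factors, were counted by list in each tissue. The lists were written with earlier results of these libraries known. In endosperm, 2 of 3 HSP101 and ClpB disaggregase genes, 9 of 28 small heat shock protein genes, 6 of 21 HSP70 genes and 1 of 7 HSP90 genes fell, and none rose. Over all genes tested, 1.23% were called lower and 0.0303% higher. Median log2 differences in these lists were −1.71, −0.42, −0.16 and −0.38. In leaf, 0 of 3, 4 of 18, 8 of 19 and 3 of 6 rose, and none fell, with medians of 0.13, 0.19, 0.28 and 0.33. Over all genes tested in leaf, 2.47% were called higher and 0.47% lower. In the same endosperm libraries 4 of 7 embryo and aleurone markers were called lower, with a median of −0.79, and their part in the chaperone counts was not tested.

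**Figure D5:**
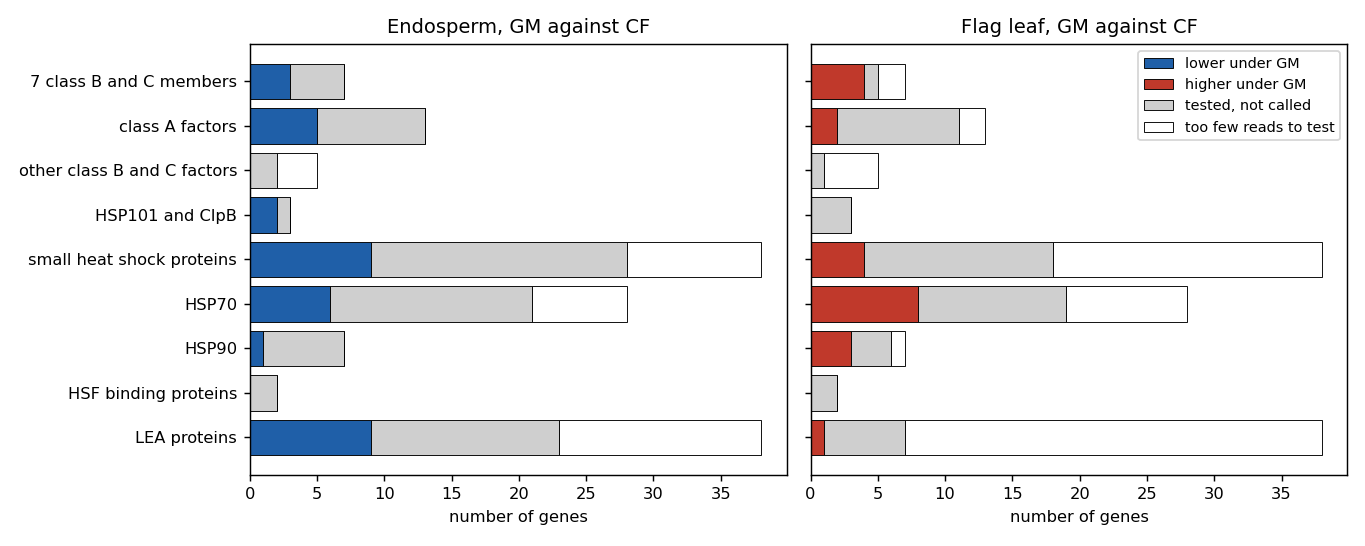
Number of genes (horizontal axis) in each list called lower, called higher, tested and not called, or with too few reads to test, for GM against CF in endosperm (left) and flag leaf (right). Where genes of these lists were called, endosperm calls were lower under GM and leaf calls higher under GM. Calls over all genes leaned the same way, with 1.23% lower and 0.0303% higher in endosperm. In leaf 2.47% of all genes were called higher and 0.47% lower.

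Of each list, the 2 genes with the highest mean CPM, which also depends on transcript length, are named. OsHsp24.1 (Os02g0758000), a mitochondrial small heat shock protein, fell in endosperm by 1.84 on the log2 scale (SE 0.15, adjusted p = 0.00015) and rose in leaf by 1.02 (SE 0.09, adjusted p = 0.0014). Oshsp17.9A (Os03g0266300) fell by 0.76 (SE 0.12, adjusted p = 0.0070) in endosperm and rose by 0.43 (SE 0.08, adjusted p = 0.023) in leaf, the latter lost without CF replicate 1, 2 or 3 or GM replicate 3. OsHSP82A (Os08g0500700), an HSP90, fell by 1.18 (SE 0.15, adjusted p = 0.0020) in endosperm and rose by 0.75 (SE 0.10, adjusted p = 0.0063) in leaf, the latter lost without CF replicate 2 (adjusted p = 0.068). OsHSP82 (Os09g0482100) had −0.38 (SE 0.15, adjusted p = 0.258) in endosperm and rose in leaf by 0.35 (SE 0.08, adjusted p = 0.037), a call lost without CF replicate 1, 2 or 3 or GM replicate 2 or 3. ClpB-m (Os02g0181900) fell in endosperm by 1.71 (SE 0.12, adjusted p = 5.0e-05) and had 0.14 (SE 0.08, adjusted p = 0.427) in leaf. ClpB-c (Os03g0426900) had −0.09 (SE 0.13, adjusted p = 0.811) in endosperm and 0.13 (SE 0.11, adjusted p = 0.579) in leaf.

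OsBiP1 (Os02g0115900), the chaperone of the endoplasmic reticulum, had −0.24 (SE 0.18, adjusted p = 0.569) in endosperm and rose by 0.60 (SE 0.08, adjusted p = 0.0063) in leaf, a call lost without CF replicate 2 (adjusted p = 0.068). The HSP70 gene Os11g0703900 had −0.35 (SE 0.19, adjusted p = 0.405) in endosperm and 0.03 (SE 0.12, adjusted p = 0.923) in leaf. Genes of the HSF-binding proteins OsHSBP1 (Os09g0375100) and OsHSBP2 (Os06g0274000), which restrain heat stress factors, had 0.04 (SE 0.10, adjusted p = 0.889) and 0.01 (SE 0.10, adjusted p = 0.964) in endosperm. In leaf they had −0.10 (SE 0.08, adjusted p = 0.606) and −0.06 (SE 0.10, adjusted p = 0.828).

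Late embryogenesis abundant (LEA) genes, which protect drying cells and respond to abscisic acid, were counted beside the class C factors. In endosperm 9 of 23 fell and none rose, with a median of −1.08, beside 1.23% of all genes called lower and 0.0303% called higher. The embryo and aleurone markers had all 7 values below 0 and 4 called lower in the same libraries, and their part in the LEA counts was not tested. In leaf 1 of 7 LEA genes rose and none fell, beside 2.47% of all genes called higher and 0.47% called lower. The leaf gene was OsLEA9 (Os01g0314800), at 0.91 (SE 0.12, adjusted p = 0.0056) in leaf and −0.37 (SE 0.43, adjusted p = 0.756) in endosperm. OsLEA7 (Os03g0843300) had −0.04 (SE 0.11, adjusted p = 0.891) in endosperm and 0.07 (SE 0.10, adjusted p = 0.805) in leaf.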

How the data were processed

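Per the labels' protocols, poly(A) RNA went into a directional library kit. The authors deposited unnormalized counts, named unique exon reads per the labels, with 37727 loci in the table of each tissue. The submitters' processing notes name build IRGSP-1.0. The aligner, counter and strand setting were not given in the sources used here. Reads shared between near-identical genes may be missing from such counts.

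Counts were analysed with edgeR 4.0.16 in R 4.3.3: filterByExpr by group (minimum count 10), TMM scaling, robust quasi-likelihood fits and Benjamini-Hochberg adjustment over all genes tested. Each tissue was fitted alone, and 4 group means over 10 libraries gave the tissue contrasts. The SE is the size of a log2 fold change over the square root of F. The procedure was also run on simulated counts, with 1 relative spread for every gene and changes set only in genes above 5 CPM. That run does not speak to genes with few reads, and no result here rests on it. DESeq2 1.42.0 and the other alternatives appear in the closing section.

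The members, gene lists and tests were chosen with earlier results of these data known. The named genes are all heat stress factors, the 2 of highest mean CPM in each partner list and the 2 nearest in pattern to each member. Intervals and floors cover counting error only. Promoters and proteins were not analysed here.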

Additional observations from a re-analysis of the deposited data

Results flagged for a closer look

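The difference of the GM effect between the tissues was fitted itself over all 10 libraries. Of 13 class A factors tested 3 were called, all negative, beside 0.555% of the 25035 genes tested called negative and 0.0599% called positive. The 3 HSFB2 genes were called in the same fit and are listed beside them, and nothing is read from their calls. Among the class B genes, the endosperm effect minus the leaf effect was −3.15 for HSFB2B, −2.57 for HSFB2A and −1.97 for HSFB2C on the log2 scale, given as a description since the genes were chosen with earlier results known. Among class A factors it was −3.87 for HSFA2A (adjusted p = 0.0056), −2.05 for HSFA2C (adjusted p = 2.2e-06) and −1.34 for HSFA2D (adjusted p = 0.0027). HSFA2A had 4 or 5 reads in each leaf library, so its leaf side is weakly measured.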

How the results depend on the processing

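Alternatives were RLE scaling, no filter, a filter of 5 CPM, DESeq2, a replicate block, a fit of all 10 libraries, each library left out, and, chosen after seeing the data, equal leaf depth. Of the 7 class B and C genes, the sign was kept in 66 of 68 endosperm, 63 of 63 leaf, 101 of 102 interaction, 100 of 102 CF tissue and 99 of 102 GM tissue values. The interaction values include those of HSFC2B, whose sign there means nothing because it had no leaf reads. Calls among all 140 family and partner genes numbered 35 in endosperm (24 to 43 with 1 library left out) and 22 in leaf (4 to 21). Class A calls in endosperm went from 5 to 3 by DESeq2 (which gave HSFA6 no adjusted p), to 2 with the replicate block and to between 2 and 4 with a library left out. Class B and C calls in leaf went from 4 to 2 in the fit of all 10 libraries and to between 1 and 3 with a library left out. Class A calls in leaf went from 2 to 1 with RLE scaling, the fit of all 10 libraries or equal depth, and to between 0 and 1 with a library left out. With fewer libraries the spread is less well estimated; otherwise the cause was not tested. In the sample titles, same-numbered CF and GM libraries share only a number. Correlations of their deviations were 0.036 in endosperm and between −0.005 and 0.029 in leaf. With 2 endosperm libraries a group the deviations mirror each other, so the endosperm value says little about pairing. The replicate block gave 29 family and partner calls in endosperm and 21 in leaf, with 3 class B and C calls in each. Over all genes, calls in endosperm were 292, 168 with the block, 1370 without a filter and 135 to 944 with a library left out (135 without CF replicate 1). In leaf they were 594, 335 in the fit of all 10 libraries, 987 without a filter and 40 to 933 with a library left out (40 without CF replicate 2, 70 without CF replicate 3), so the leaf background shares rest on those libraries too. For the difference between tissues they were 154, 236 without a filter, 352 by DESeq2 and 80 to 204 with a library left out. Promoter motif counts were not run. HSFC1B had at most 12 reads a library, and no difference was detectable at this depth.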

Other observations

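Class A factors were also compared between the tissues. Under CF, 8 of 13 were lower and 5 higher in endosperm than in leaf, beside 38.1% and 45.0% of all genes tested. Under GM 8 were lower, 2 higher and 3 did not pass the test, beside 37.7% and 44.6% of all genes. HSFA2D, endosperm minus leaf, had a log2 value of −4.26 (SE 0.16) under CF and −5.60 (SE 0.17) under GM. SPL7 had −5.10 (SE 0.25) and −5.43 (SE 0.23). HSFA2A went the other way, at 7.16 (SE 0.24) under CF and 3.29 (SE 0.33) under GM. HSFA2C was higher in endosperm under CF, at 2.15 (SE 0.10, adjusted p = 1.1e-11), and had 0.11 (SE 0.10, adjusted p = 0.335) under GM.

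Summed over the 7 class B and C genes, which weights them by read number and so by length, CF endosperm held 111 to 120 CPM and GM endosperm 46.1 to 47.5 CPM. Leaf held 71.9 to 85.8 CPM under CF and 114 to 131 CPM under GM. Over the 13 class A factors the sums were 362 to 379 and 209 to 223 CPM in endosperm and 716 to 761 and 844 to 896 CPM in leaf.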
